A study of Homo sapiens with 26 samples.

Results

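The genes described here are 10 members of the SR family of splicing factors: SRSF1, SRSF2, SRSF3, SRSF4, SRSF5, SRSF6, SRSF7, SRSF11, TRA2A and TRA2B. They were chosen by name, 10 of the 63086 genes listed in the count files, and all 10 were abundant enough to be tested. RNA was measured by poly(A) sequencing in HCT116 cells, a human colorectal carcinoma line. In 24 of the 26 libraries the cells carried the label Tet-OsTIR1-PURO, lacked IGF2BP2 and IGF2BP3 (IGF2BP2 KO, IGF2BP3 KO) and expressed mCherry-IGF2BP1 in the form WT, RQ, S181E or Y396E. IGF2BP1 is an RNA-binding protein that binds and stabilises messenger RNAs. S181E and Y396E mimic phosphorylation in its first and second disordered linker, and RQ exchanges arginines of the first linker for glutamine. Each population received PBS as control or 500 µM sodium arsenite for 2 h, with 3 dishes per group that were plated and grown separately. The remaining pair of libraries, 1 control and 1 arsenite, came from parental HCT116 cells with neither knockout nor transgene. The knockouts were made in single-cell clones, and each transgene population was sorted by mCherry fluorescence in a narrow gate, so every form of IGF2BP1 is represented by 1 cell population.

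SR proteins bind exons through RNA recognition motifs and recruit the splicing machinery through domains rich in arginine and serine. Many of them limit their own synthesis by splicing a poison exon into their RNA. Such an exon carries an early stop codon that exposes the RNA to nonsense-mediated decay, a process that needs translation. Arsenite causes oxidative stress and a stop of translation initiation, and RNAs that this decay pathway normally removes can then accumulate. These points are background and were not measured here.

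The poison exons are shown first because they set what the counts can and cannot hold. In GENCODE release 44 each of the 10 genes had at least 1 transcript marked for nonsense-mediated decay, against 50.6% of the 9099 genes tested. The genes were picked as known carriers of poison exons, so this is a description and not a result. For 7 members (SRSF3, SRSF4, SRSF6, SRSF7, SRSF11, TRA2A and TRA2B) the stop codon of such a transcript lay in an internal exon that falls within an intron of the main transcript. SRSF3, SRSF7 and SRSF11 have further annotated exons of this kind, which were not counted in the files, and 1 exon per gene is shown. The following 30-base stretches of hg38 are written 5′ to 3′ on the strand of the gene, with the early stop codon in capitals.
SRSF3, chr6:36599840-36599869, plus strand: ctcaccaccctcTGAatctgcattagccag
SRSF4, chr1:29165994-29166023, minus strand: ttacaaggaaaaTGAgtgaatgtgggaatg
SRSF6, chr20:43459290-43459319, plus strand: gccttttgccatTAGacgcagggtgatggt
SRSF7, chr2:38749304-38749333, minus strand: agtcagtcgcctTGAttcagaatgtcacga
SRSF11, chr1:70231894-70231923, plus strand: gcttttgaaagtTGAgagcacacccctgga
TRA2A, chr7:23522274-23522303, minus strand: agattggtcagaTAGaagcacttgaatatt
TRA2B, chr3:185931757-185931786, minus strand: ctcaggaataagTGAagctgaaatttgaaa

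The exons that hold these stops are 456 bases long in SRSF3, 175 in SRSF4, 268 in SRSF6, 449 in SRSF7, 117 in SRSF11, 301 in TRA2A and 276 in TRA2B. Of these 7 exons only that of TRA2A was among the exons counted in the files, with 301 of its 301 bases. All of these bases also occur in protein-coding transcripts of TRA2A. Some decay stops of other members lay in counted exons that do not fall within an intron of the main transcript. Examples are a 1051-base exon of SRSF1 and a 311-base exon of SRSF2, both counted in full. Counting used the basic set of GENCODE release 46, and 0 of the 24 decay transcripts of the 10 genes belong to the basic set of release 44. Over the 10 genes, 4246 exon bases of decay transcripts occur in no protein-coding transcript, and 0 of them were counted. Transcripts marked as retained introns were not set aside and can share these bases. Not all of the bases belong to exons like the 7 above. Decay transcripts also have a 1030-base exon in SRSF5 and a 1127-base exon in SRSF7 that do not fall within an intron of the main transcript. SRSF7 had the most, 1259, followed by SRSF5 with 822, SRSF4 with 723 and SRSF3 with 563. SRSF2 and TRA2A had 0 such bases. A read wholly inside an uncounted poison exon was therefore lost, while a read that also touched a counted exon could be assigned to the gene. The values below are levels of the gene over its counted exons and do not separate productive from poison isoforms.

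**Figure D1:**
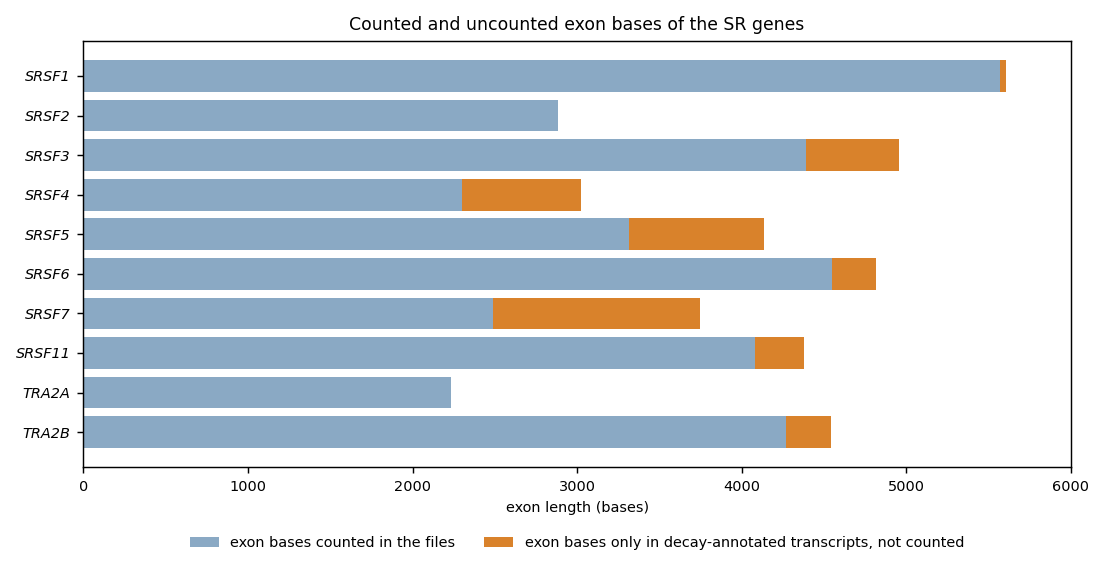
Length in bases of the exons counted in the files (blue) for each of the 10 genes. Orange marks exon bases of transcripts marked for nonsense-mediated decay that occur in no protein-coding transcript. Transcripts marked as retained introns can share them. The orange part, 1259 bases in SRSF7 and 0 in SRSF2 and TRA2A, was counted in no library.

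The 10 genes lie on 8 chromosomes, with SRSF1 and SRSF2 both on chromosome 17 (58000919 to 58007273 and 76734115 to 76737333, minus strand) and SRSF4 and SRSF11 both on chromosome 1 (29147743 to 29181900, minus strand, and 70205682 to 70253052, plus strand). The others are SRSF3 on chromosome 6 (36594362 to 36605600, plus strand), SRSF5 on chromosome 14 (69726900 to 69772005, plus strand), SRSF6 on chromosome 20 (43457893 to 43466046, plus strand), SRSF7 on chromosome 2 (38743599 to 38751494, minus strand), TRA2A on chromosome 7 (23504780 to 23532041, minus strand) and TRA2B on chromosome 3 (185914558 to 185938103, minus strand). SRSF1 shared 1890 of its 5570 exon bases with another gene on the same strand, and SRSF6 shared 654 of 4548. Reads there are ambiguous and are dropped by default, and both partner genes had 0 counts in all libraries, so the levels of SRSF1 and SRSF6 come from the rest of their exons. Pseudogenes named after the members held at most 0.0425% of the counts of their parent gene.

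Depth was 22508145 to 50834401 counts per library, and the lowest count of any member in any of the 24 libraries was 1514. Of the epithelial markers, EPCAM, CDH1, KRT8, KRT18, KRT19 and CDX2 were present in all libraries, KRT20 and VIL1 stayed at or below 3.24 and 0.228 CPM (counts after TMM scaling to equal library totals), and of 8 markers of other cell types only COL1A1 exceeded 0.273 CPM, with up to 11.53 CPM. The summed epithelial markers were at 2829 to 3178 CPM in WT control and 4370 to 4473 CPM in WT arsenite libraries. The Y396E arsenite library of replicate 3 had counts for 13897 genes, against at least 20850 in every other library. In S181E and Y396E the 322 tested genes of chromosome 8 had a median log2 difference from WT of -0.42 and -0.41 in control libraries, and no member lies on that chromosome. The RNA came from clarified lysate, so more RNA per cell, a larger share of expressing cells and more RNA in the soluble part cannot be told apart.

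In WT control cells the levels per kilobase of counted exon spanned from 170.5 ± 5.49 CPM per kb for SRSF2 to 23.3 ± 0.804 for SRSF11 (SD, n = 3). SRSF3, the smallest SR protein, followed SRSF2 with 111.3 ± 3.46, and SRSF7, its close relative, with 95.3 ± 1.79. SRSF5 had 60.9 ± 5.37 CPM per kb, SRSF6 55.7 ± 2.21, TRA2B 50.7 ± 1.06, TRA2A 37.2 ± 1.499, SRSF4 31.0 ± 3.26 and SRSF1 27.3 ± 0.465. In this order the libraries of SRSF5 overlapped those of SRSF6, and the libraries of SRSF4 those of SRSF1. All other neighbours were separated in all 3 libraries. In WT arsenite cells the order was SRSF2, SRSF7, SRSF3, TRA2B, TRA2A, SRSF5, SRSF6, SRSF4, SRSF11 and SRSF1, from 242.6 ± 5.38 to 23.7 ± 0.985 CPM per kb, with no overlap between neighbours. SRSF7 thus stood above SRSF3, both TRA2 genes stood above SRSF5 and SRSF6, and SRSF1 was last on this scale. The lengths include the bases that SRSF1 and SRSF6 share with another gene, where reads are dropped by default. The values per kilobase of SRSF1 and SRSF6 are therefore too low, and their places in both orders, with or without overlap, are not settled.

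**Figure D2:**
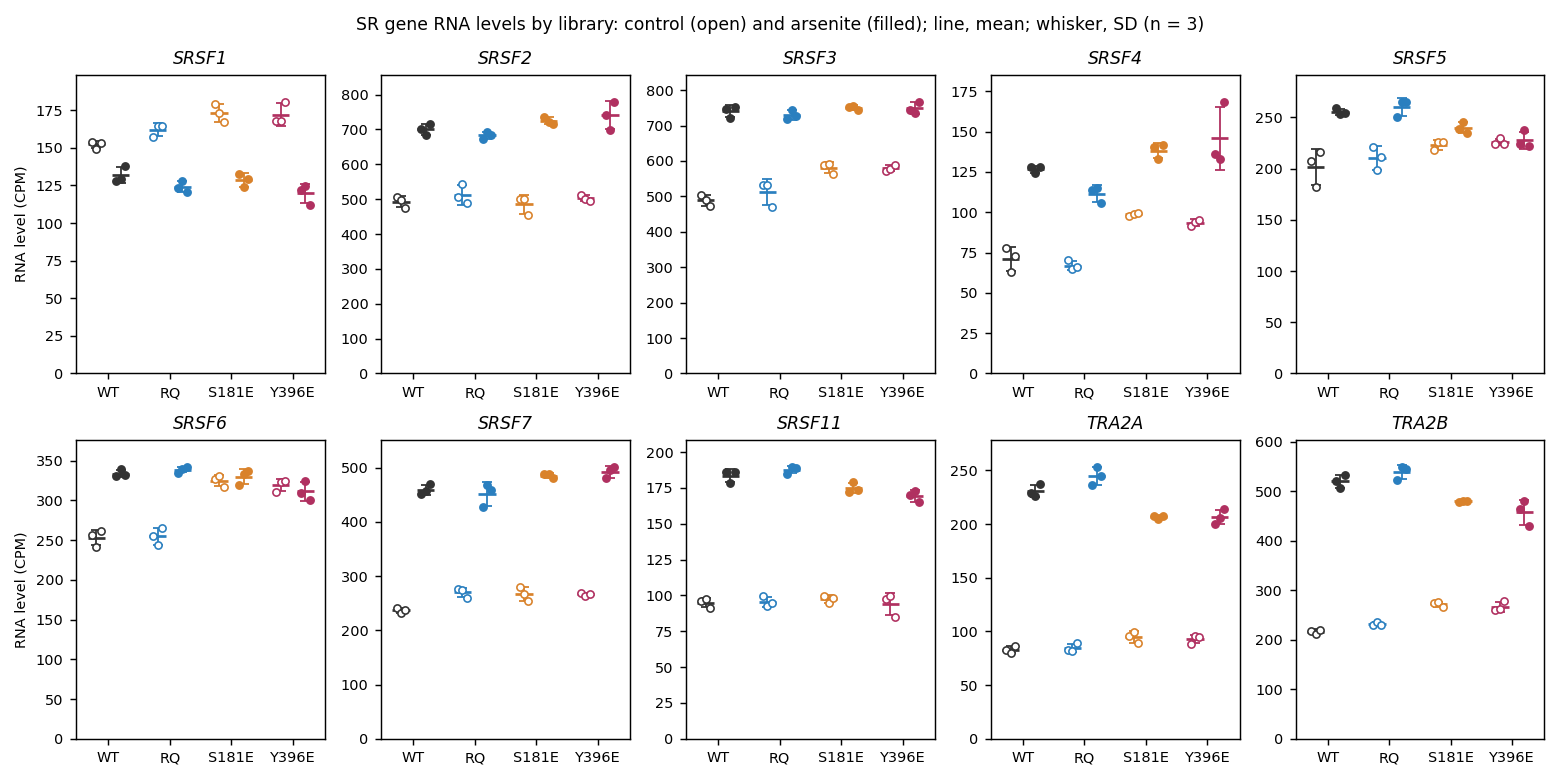
RNA level in CPM (vertical axes, starting at 0 and scaled per gene) of each SR gene in the 24 libraries, by form of IGF2BP1. Open points are control and filled points arsenite libraries, lines are means and whiskers SD (n = 3). TRA2A and TRA2B separate most by treatment, and SRSF1 is the gene with lower points in arsenite.

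The first comparison asked how the SR genes respond to arsenite in cells with WT IGF2BP1. Of the 10 genes, 9 rose and SRSF1 did not pass the fold threshold. Across all genes tested 72.2% were called, 36.3% higher and 35.9% lower, so that a call as such was common, and the median log2 change was 0.71 for the 10 members and -0.01 for all genes. A gene was called when its Benjamini-Hochberg adjusted p over all tested genes was under 0.05 in edgeR's quasi-likelihood test and its fold change above 1.2.

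The TRA2 genes, which encode splicing activators related to Drosophila Transformer-2, rose most. TRA2A was at 82.3, 80.2 and 86.8 CPM in WT control libraries and at 228.9, 225.9 and 236.9 CPM in arsenite. The groups were far apart, and the change was 1.47 ± 0.05 on the log2 scale (SE), or 2.77-fold (edgeR adjusted p = 1.36e-18). TRA2A is also the member whose poison exon was counted, and the part of that exon in its level was not tested. All bases of that exon also occur in protein-coding transcripts, so reads there need not come from a decay transcript. TRA2B was at 217.8, 211.1 and 219.7 CPM in control and at 520.4, 506.1 and 532.2 CPM in arsenite. This was a rise of 1.26 ± 0.04, or 2.40-fold, again with no overlap between groups.

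SRSF7 and SRSF11 came next with changes of nearly the same size. SRSF7, whose protein has a zinc knuckle beside its RNA recognition motif, was at 241.6, 232.6 and 237.4 CPM in control and at 451.6, 456.0 and 469.9 CPM in arsenite, a log2 change of 0.95 ± 0.04. SRSF11, a less typical member of the family, was at 95.9, 97.6 and 91.2 CPM in control and at 186.2, 178.3 and 185.9 CPM in arsenite, a log2 change of 0.95 ± 0.05. Both genes were thus about as much above their control level in all 3 arsenite libraries. SRSF4, a large SR protein with a long arginine and serine domain, rose by 0.83 ± 0.07 from 77.7, 63.0 and 72.8 CPM to 127.8, 124.1 and 127.8 CPM. Its control libraries were the most scattered relative to their mean among these genes.

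SRSF3 and SRSF2, the most abundant members per kilobase in WT control cells, rose less. SRSF3 was at 502.9, 490.8 and 472.8 CPM in control and at 747.4, 722.3 and 752.4 CPM in arsenite, a log2 change of 0.60 ± 0.04. SRSF2 was at 505.2, 496.1 and 474.4 CPM in control and at 700.1, 684.1 and 715.1 CPM in arsenite, a log2 change of 0.51 ± 0.05. For both, every arsenite library exceeded every control library.

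SRSF5 and SRSF6, which are close in sequence and domain layout to SRSF4, rose least. SRSF6 was at 257.1, 242.0 and 261.0 CPM in control and at 330.4, 339.3 and 332.2 CPM in arsenite, a log2 change of 0.40 ± 0.04. SRSF5 was at 207.3, 181.9 and 216.2 CPM in control and at 258.9, 253.7 and 254.4 CPM in arsenite, a log2 change of 0.34 ± 0.05. The groups did not overlap for either gene, but both calls depended on the handling of gene length: with a correction for exon length, added after the data were seen, the changes were 0.25 for SRSF6 and 0.17 for SRSF5, below the fold threshold. Among all genes tested, those with up to 2908 exon bases had a median change of -0.21 in this comparison, and longer genes, divided into those with up to 5142 bases and the rest, had medians of 0.09 and 0.10.

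SRSF1, the founding member of the family, stood apart. It was at 154.1, 149.3 and 153.3 CPM in WT control libraries and at 127.7, 129.6 and 138.0 CPM in arsenite. Every arsenite library lay below every control library, and the log2 change was -0.21 ± 0.05 (edgeR adjusted p = 0.000314), but its size stayed under the 1.2-fold threshold. With the exon length correction it was -0.36 and called, and with scaling by library totals only it was -0.05. Library totals are, here and below, sums over the 9099 tested genes and not over all counts of a library.

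In RQ cells all 10 members were called, 9 higher and SRSF1 lower, where 72.9% of all genes were called, 37.1% higher and 35.8% lower. TRA2A was at 82.9, 82.1 and 88.8 CPM in control and at 236.4, 253.1 and 244.7 CPM in arsenite, a rise of 1.53 ± 0.05. TRA2B rose by 1.21 ± 0.04, SRSF11 by 0.97 ± 0.05, and SRSF7 and SRSF4 both by 0.74 (SE 0.04 and 0.07). The rises of SRSF3, SRSF2, SRSF6 and SRSF5 were 0.51, 0.42, 0.41 and 0.31. SRSF1 fell from 157.4, 164.3 and 164.7 CPM to 123.4, 128.0 and 120.7 CPM, a log2 change of -0.39 ± 0.05. Scaling by library totals alone ended this call (-0.22), and the exon length correction ended those of SRSF2, SRSF5 and SRSF6 (0.26, 0.12 and 0.26).

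In S181E cells 8 members were called, 7 higher and SRSF1 lower, where 65.3% of all genes were called, 32.0% higher and 33.3% lower. TRA2A was at 96.1, 99.9 and 89.2 CPM in control and at 207.2, 205.0 and 207.9 CPM in arsenite, a rise of 1.12 ± 0.05. TRA2B rose by 0.82 ± 0.04, from 273.5, 276.0 and 265.6 CPM to 478.0, 479.6 and 480.8 CPM. SRSF7 rose by 0.86, SRSF11 by 0.84, SRSF2 by 0.58, SRSF4 by 0.49 and SRSF3 by 0.37, and the last of these calls was lost with the exon length correction (0.26). SRSF1 fell from 179.3, 173.1 and 167.4 CPM to 132.9, 123.7 and 129.3 CPM, a log2 change of -0.43 ± 0.05. SRSF6 was at 327.0, 330.9 and 317.0 CPM in control and at 318.9, 333.3 and 337.2 CPM in arsenite, so that the groups overlapped, and its change was 0.02 (95% interval -0.06 to 0.11). SRSF5 had a change of 0.10 ± 0.05 (edgeR adjusted p = 0.0698).

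The Y396E cells gave the same set of 8 called members, where 65.8% of all genes were called and 32.9% in each direction. TRA2A was at 88.3, 95.4 and 95.2 CPM in control and at 200.1, 205.6 and 213.7 CPM in arsenite, a rise of 1.15 ± 0.05. TRA2B rose by 0.78 ± 0.04, from 259.0, 261.5 and 278.0 CPM to 463.1, 479.6 and 430.4 CPM. SRSF7 rose by 0.89, SRSF11 by 0.85, SRSF4 by 0.64, SRSF2 by 0.56 and SRSF3 by 0.37. SRSF1 showed its lowest arsenite levels here, 122.0, 124.7 and 112.3 CPM against 167.5, 168.0 and 180.7 CPM in control, and fell by 0.52 on the log2 scale. SRSF5 and SRSF6 overlapped between treatments, with changes of 0.01 (95% interval -0.09 to 0.12) and -0.04 (-0.12 to 0.05). Without the library of few detected genes, replicate 3, the count of called members was again 8.

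**Figure D3:**
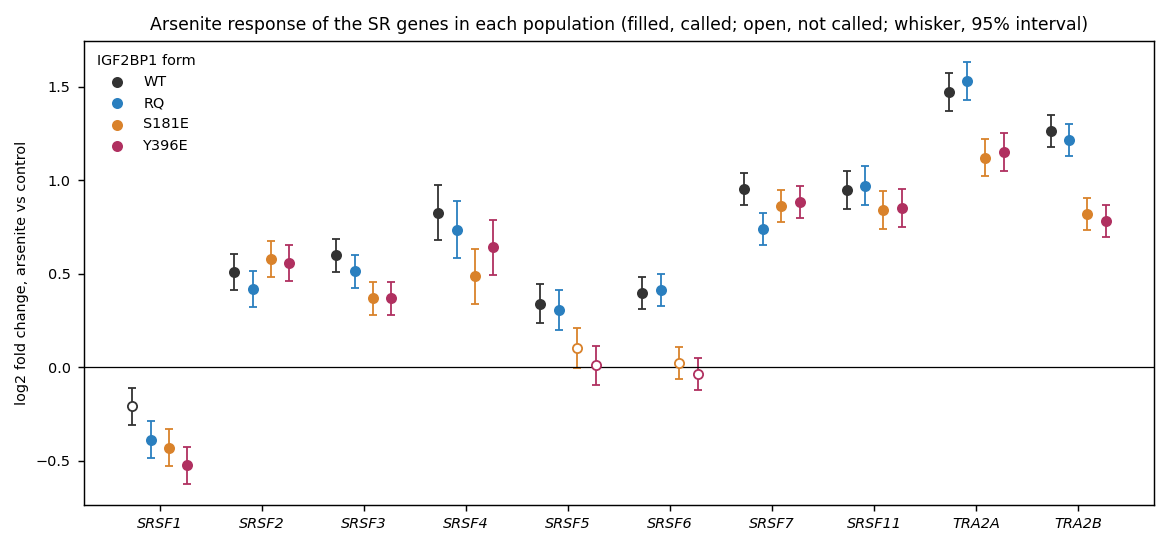
Log2 fold change of arsenite against control (vertical axis) of each SR gene in WT, RQ, S181E and Y396E cells. Filled points passed both thresholds, open points did not, and whiskers are 95% intervals of the fitted change. TRA2A reaches 1.47 in WT and 1.53 in RQ but 1.12 and 1.15 in S181E and Y396E, and SRSF1 is the gene below 0 in all populations.

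The parental pair, without replicates and without a test, is given for comparison. TRA2A was at 88.0 CPM in control and 203.6 CPM in arsenite, a log2 difference of 1.21, and TRA2B at 251.3 and 468.2 CPM, a difference of 0.90. SRSF11, SRSF4 and SRSF7 differed by 0.84, 0.70 and 0.68, SRSF2 by 0.39, SRSF3 by 0.28, SRSF6 by 0.22 and SRSF5 by 0.10. SRSF1 was at 173.8 CPM in control and 127.4 CPM in arsenite, a difference of -0.45. The 9 other genes were thus higher and SRSF1 lower in the arsenite library of cells without the transgene.

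The second comparison set the SR genes of each mutant population against those of WT in unstressed cells. Each form is 1 population, here and in the comparisons below. The p-values measure the spread between dishes, so form and population cannot be told apart. SRSF4, SRSF6 and TRA2B were higher than in WT in both S181E and Y396E, and no member was called in RQ. Across all genes tested 31.1% were called in S181E and 28.6% in Y396E. The 3 of 10 members called are near these shares, so the number of calls as such is no result about the members. The called members were all higher, and 15.7% and 14.5% of all genes tested were called higher. In RQ 1.43% of all genes were called.

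SRSF4 showed the largest of these differences. It was at 97.9, 98.7 and 99.4 CPM in S181E and at 91.4, 93.9 and 95.3 CPM in Y396E control libraries, all above the WT libraries at 77.7, 63.0 and 72.8 CPM. The log2 differences were 0.47 ± 0.07 and 0.39 ± 0.07 (edgeR adjusted p = 1.19e-05 and 0.000121). In RQ it was at 70.1, 64.7 and 65.8 CPM, within the range of WT.

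SRSF6 was at 327.0, 330.9 and 317.0 CPM in S181E and at 310.9, 323.6 and 324.2 CPM in Y396E control libraries, against 257.1, 242.0 and 261.0 CPM in WT. The differences were 0.36 ± 0.04 and 0.33 ± 0.04 on the log2 scale, and control cells of both mutants thus lay near the level that WT cells reached in arsenite (330.4, 339.3 and 332.2 CPM). In RQ it was at 254.9, 244.0 and 265.0 CPM, overlapping WT.

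TRA2B was at 273.5, 276.0 and 265.6 CPM in S181E and at 259.0, 261.5 and 278.0 CPM in Y396E, against 217.8, 211.1 and 219.7 CPM in WT, and differed by 0.33 ± 0.04 and 0.30 ± 0.04. In RQ its difference from WT was 0.10 ± 0.04 (edgeR adjusted p = 0.24). Among the uncalled members, SRSF3 came closest to the threshold, with 0.25 ± 0.04 in both mutants (edgeR adjusted p = 4.63e-05 and 6.31e-05). It was called without WT control replicate 1 in both mutants, and in S181E also without S181E control replicate 3.

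SRSF1, SRSF5, SRSF7 and TRA2A had differences of 0.15 to 0.19 in S181E and of 0.16 to 0.18 in Y396E, each with an adjusted p under 0.05 but below the fold threshold. SRSF2 and SRSF11 lay close to WT in both mutants, with differences between -0.02 and 0.04 and 95% intervals within -0.12 and 0.14. The number of called members depended on scaling. With library totals of the tested genes only, 8 were called in S181E and 8 in Y396E. The median of all genes was then 0.18 and 0.14. The share of all genes called with that scaling is not given here, so these counts are no result about the members. The RNA of IGF2BP1 itself also differed, with 12.1 ± 2.27 CPM in WT, 18.6 ± 1.56 in S181E and 16.5 ± 1.18 in Y396E control libraries (SD, n = 3). In RQ, where no member was called, it was at 14.4 ± 1.91 CPM. Under arsenite WT cells had 29.2 ± 1.15 CPM of it, against 47.1 ± 0.863 CPM for RQ, 43.3 ± 0.688 CPM for S181E and 43.2 ± 1.26 CPM for Y396E. Its part in the differences of the SR genes was not tested. Both mutants were compared with the same WT libraries, so their values are not independent of each other. They also shared the lower chromosome 8 median in control libraries (-0.42 and -0.41, against 0.02 in RQ), whose part was not tested.

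In RQ control cells 0 members were called in edgeR's quasi-likelihood test and 0 in DESeq2, with 2 at an unadjusted p under 0.05. SRSF7 was the gene with the smallest p, at 276.2, 273.8 and 260.3 CPM against 241.6, 232.6 and 237.4 CPM in WT. The groups did not overlap, and its log2 difference was 0.19 ± 0.04 (edgeR adjusted p = 0.0147), below the fold threshold. The 95% intervals of the 10 members lay between -0.24 and 0.27.

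The third comparison was that of the mutants with WT under arsenite, and there no member was called in any mutant by edgeR's quasi-likelihood test or by DESeq2. Across all genes S181E had 13.7% called, Y396E 21.7% and RQ 1.52%. An unadjusted p under 0.05 was found for 2 members in S181E, for 8 in Y396E and for 1 in RQ. The share of all genes at this looser threshold is not given, here or in the other RQ comparisons. These numbers are therefore no result about the members. The 3 genes that were higher in control cells of S181E and Y396E had arsenite levels near or below those of WT, except SRSF4. SRSF6 was at 318.9, 333.3 and 337.2 CPM in S181E and at 309.7, 324.4 and 301.0 CPM in Y396E, against 330.4, 339.3 and 332.2 CPM in WT, with log2 differences of -0.02 and -0.10. TRA2B was at 478.0, 479.6 and 480.8 CPM and at 463.1, 479.6 and 430.4 CPM, below the WT libraries at 520.4, 506.1 and 532.2 CPM, with differences of -0.12 and -0.18. SRSF4 was at 140.3, 132.9 and 141.7 CPM and at 136.1, 133.2 and 168.6 CPM, above the WT libraries at 127.8, 124.1 and 127.8 CPM, with differences of 0.13 and 0.21. The highest SRSF4 value, 168.6 CPM, was that of the Y396E library with few detected genes. Without Y396E arsenite replicate 2, which leaves that library with greater weight, SRSF4 was called at 0.27.

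TRA2A, too, lay below WT in arsenite in both mutants, at 207.2, 205.0 and 207.9 CPM in S181E and 200.1, 205.6 and 213.7 CPM in Y396E against 228.9, 225.9 and 236.9 CPM in WT. Its difference was -0.16 ± 0.05 in both (edgeR adjusted p = 0.0165 and 0.0109) and a size under the fold threshold. The 95% intervals of all 10 members reached from -0.25 to 0.27 in S181E, from -0.27 to 0.35 in Y396E and from -0.33 to 0.18 in RQ.

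**Figure D4:**
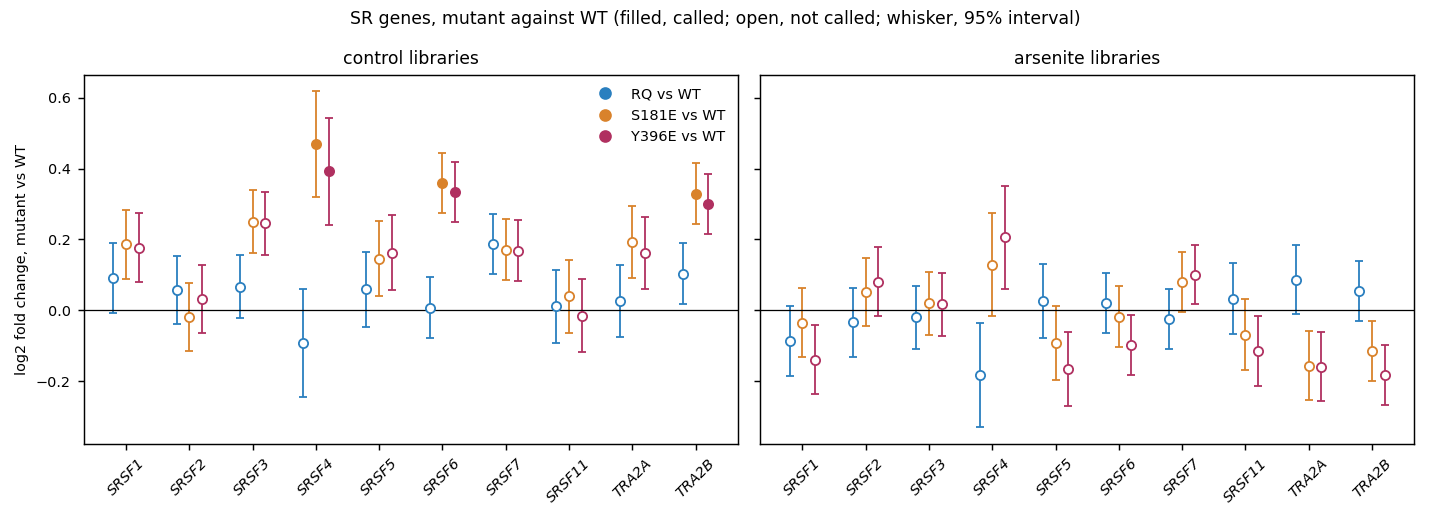
Log2 difference of RQ, S181E and Y396E from WT (vertical axis) of each SR gene in control (left) and arsenite (right) libraries. Filled points passed both thresholds, open points did not, and whiskers are 95% intervals. The filled points are SRSF4, SRSF6 and TRA2B in S181E and Y396E control libraries, with differences of 0.30 to 0.47.

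The last comparison tested directly whether the response to arsenite differed from that of WT cells. In S181E the response of 4 members was smaller, and in Y396E that of 5 members was lower, while RQ had no called member. Across all genes 16.4% were called in S181E, 9.41% as lower responses, and 21.5% in Y396E, 11.1% as lower responses. In RQ 0.22% of all genes were called. The median difference of the 10 members was -0.23 in S181E and -0.27 in Y396E, against -0.03 and -0.02 over all genes.

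TRA2B had the largest difference in both mutants, -0.45 ± 0.06 in S181E and -0.48 ± 0.06 in Y396E (edgeR adjusted p = 2.52e-05 and 7.4e-06). SRSF6 followed with -0.38 ± 0.06 and -0.43 ± 0.06. TRA2A, which was not called as different from WT in either treatment alone, had a response that differed from WT by -0.35 ± 0.07 in S181E and -0.32 ± 0.07 in Y396E. These 3 genes were called in both mutants.

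SRSF4 was called in S181E, with -0.34 ± 0.10 (edgeR adjusted p = 0.0217), and the call was lost without WT control replicate 2 (-0.26) and without S181E arsenite replicate 2 (-0.31). In Y396E its difference was -0.19 ± 0.10, and -0.30 and called without the library of few detected genes. SRSF5 was called in Y396E with -0.33 ± 0.07, a call lost without WT control replicate 2 (-0.26), and had -0.24 ± 0.07 in S181E, called without WT control replicate 3. SRSF1 fell further in Y396E than it changed in WT, by -0.32 ± 0.07, a call lost with the exon length correction (-0.25). In S181E its difference was -0.22 ± 0.07.

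SRSF3 had differences of -0.23 ± 0.06 in both mutants, below the fold threshold, and SRSF7 and SRSF11 between -0.07 and -0.11. SRSF2 was the member with a positive difference in both, 0.07 and 0.05 with 95% intervals of -0.07 to 0.21 and -0.09 to 0.19. In RQ 0 members were called in edgeR's quasi-likelihood test and 0 in DESeq2, with 2 at an unadjusted p under 0.05, SRSF7 (-0.21 ± 0.06) and SRSF1 (-0.18 ± 0.07). The tests of all 3 mutants share the WT libraries.

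The summed level of the 10 genes shows the same pattern without a test. Control libraries of WT and RQ summed to 2291 ± 48.8 and 2400.4 ± 52.5 CPM, and those of S181E and Y396E to 2618 ± 71.8 and 2613 ± 21.97 CPM (SD, n = 3). The arsenite libraries summed to 3681 ± 62.8 and 3671 ± 81.9 CPM for WT and RQ, and to 3659 ± 11.3 and 3620.4 ± 35.6 CPM for S181E and Y396E. The means spread more widely in control than in arsenite libraries. The share of counts in protein-coding genes moved with this pattern, at 89.5% to 91.7% in WT and RQ control libraries, 94.7% to 95.9% in those of S181E and Y396E, and 97.0% to 98.3% in all arsenite libraries of these populations, and its part in the levels was not tested.

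Likeness of patterns was measured as Pearson's r of log2 CPM over the 24 libraries, which share their division into control and arsenite. Among the members, TRA2A and TRA2B were most like each other with r = 0.991, and so were SRSF2 and SRSF7 with r = 0.983. SRSF1 had a negative r with each of the 9 others, from -0.353 with SRSF6 to -0.915 with SRSF11. Among all other genes tested, the pattern most like TRA2A was that of DDX5, an RNA helicase, with r = 0.996, and that most like SRSF11 was RSRC2 with r = 0.995. For TRA2B it was GART, for SRSF4 DDX56, for SRSF3 CDCA2, for SRSF2 NAGS, for SRSF1 BTBD1, for SRSF6 KIF5B and for SRSF5 PIP5K1A, with r between 0.934 and 0.995. These are descriptions of likeness over libraries and carry no test.

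The rest of the splicing machinery was read from 6 lists of genes in the same fit. Over all genes tested, 36.3% were called higher and 35.9% lower in WT arsenite. The 3 tested SR genes outside the 10, SRSF8, SRSF9 and SRSF10, showed no rise in WT arsenite: SRSF9 fell by 0.44 on the log2 scale, from 374 ± 10.1 to 275 ± 0.531 CPM, SRSF8 fell by 0.39, and SRSF10 had -0.04. SRSF12 was below the filter. Of the kinases that phosphorylate SR proteins and their nuclear importer, 8 of 10 tested genes rose and 1 fell, with a median of 0.87. CLK1, a kinase of SR proteins in the nucleus, rose by 2.39 from 19.4 ± 0.924 to 101.8 ± 4.34 CPM, CLK3 rose by 1.41, and DYRK2 fell by 0.50.

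SR-related proteins, which carry arginine and serine repeats without belonging to the core family, rose in 35 of 38 cases with 1 fall and a median of 1.05. CCNL1, a cyclin found in splicing speckles, rose by 3.20 and RSRC2 by 2.11, and RNPS1 fell by 0.28. Of 28 hnRNP genes, whose proteins often oppose SR proteins at splice sites, 25 rose and 0 fell, with a median of 0.67 and rises of 2.11 for HNRNPU and 1.76 for PTBP2. Of 15 factors of nonsense-mediated decay 10 rose and 3 fell, with a median of 0.57. UPF1, the central helicase of the pathway, rose by 1.46 and SMG9 by 1.13, while RBM8A and SMG1 fell by 0.56 and 0.44. Of 38 core spliceosome genes 26 rose and 8 fell, with a median of 0.75. SNRNP200 and PRPF8, which encode large proteins of the U5 particle, rose by 2.55 and 2.37, and SNRPG and SNRPE, which encode small Sm proteins, fell by 0.85 and 0.72. The members' median of 0.71 lay among these medians. For each of these lists the share over all genes was again 36.3% higher and 35.9% lower.

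**Figure D5:**
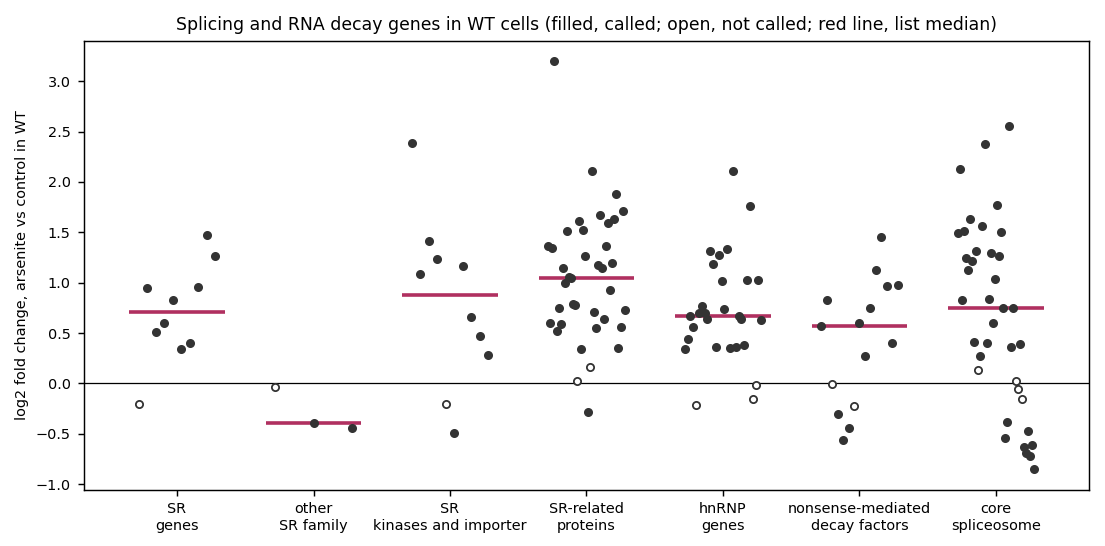
Log2 fold change of arsenite against control in WT cells (vertical axis) of each tested gene, by list. Filled points passed both thresholds, open points did not, and the red line is the median of the list: 0.71 for the 10 SR genes and 1.05 for SR-related proteins, against -0.39 for the other SR family genes.

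The other lists differed in how far they shared the lower response of S181E and Y396E, against 9.41% and 11.1% of all genes called with a lower response. In hnRNP genes 15 of 28 had a lower response in S181E and 16 in Y396E, and 0 a higher one. In SR-related proteins it was 11 of 38 in each mutant, with 1 and 2 higher, and in core spliceosome genes 9 and 13 of 38, with 0 higher. Of the kinases and the importer 2 and 1 of 10 had a lower response, of the decay factors 2 and 3 of 15, and of the other SR family genes 0 and 0 of 3, with 0 higher in these 3 lists. For the 10 SR genes the numbers were 4 and 5.

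In control cells the share of all genes called higher than in WT was 15.7% in S181E and 14.5% in Y396E. The hnRNP genes had 19 and 16 of 28 higher, core spliceosome genes 20 and 17 of 38, SR-related proteins 6 and 7 of 38, decay factors 4 and 5 of 15, kinases and importer 2 and 0 of 10, and the other SR family genes 0 and 0 of 3. For the 10 SR genes the number was 3 in each mutant, near the 31.1% and 28.6% of all genes called in either direction.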

How the data were processed

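Poly(A) RNA from clarified lysates was sequenced in 26 libraries. The authors aligned trimmed reads to hg38 with STAR (2.7.11b in the submitters' processing notes) and counted them per gene. The deposited values are whole-number counts, not normalized. Per the file headers, featureCounts v2.0.6 was used with strand setting 2 on exons of the basic GENCODE release 46. Identifiers were matched to symbols with GENCODE release 44 (62541 of 63086, 99.1%), which also gave the transcript classes. Sequence windows were read from hg38 at the annotated stop codons.

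Of the protein-coding genes, 9099 exceeded 10 CPM in 12 or more of the 24 libraries with a transgene and were tested, scaled by TMM and fitted in a single edgeR 4.0.16 quasi-likelihood model with 1 mean per group (R 4.3.3, 16 residual degrees of freedom). Benjamini-Hochberg adjustment ran over all tested genes in each of 13 comparisons. The SE of a log2 change is its size over the root of its F value. Parental libraries were not fitted. The model was tested on simulated data. Replicates differed beyond counting noise in all 24 pairs (chi-square per gene 2.96 to 70.3).

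The members and lists were chosen with earlier results of these data known. Named are all members, IGF2BP1, from each list up to 2 genes for each direction, those called in WT arsenite with the greatest change and no overlap of libraries, and for each member the tested gene most like it, of which 1 is not reported here. SRSF10 and SRSF12 were named after their values were seen. Alternatives were DESeq2 1.42.0, other scalings, filters, thresholds and samples, the replicate number as a block and each library left out. Replicate numbers were taken as a sign of pairing where the deviations of same-numbered samples had r above 0.1 in every pair. This held only between RQ and WT (0.147 to 0.525). The main fit used no pairing in any comparison, and the replicate block was an alternative only.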

Additional observations from a re-analysis of the deposited data

Results flagged for a closer look

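The response to arsenite differed from that of WT cells, by the test of the difference itself, in 9 cases. In S181E the log2 differences were -0.34 for SRSF4, -0.38 for SRSF6, -0.35 for TRA2A and -0.45 for TRA2B. In Y396E they were -0.32 for SRSF1, -0.33 for SRSF5, -0.43 for SRSF6, -0.32 for TRA2A and -0.48 for TRA2B. TRA2B had the largest difference in each mutant. For SRSF6, the level in control cells of both mutants (325 ± 7.17 and 320 ± 7.51 CPM) was already near that of WT cells in arsenite (334 ± 4.72 CPM), and the gene was not called as changed by arsenite in either mutant. TRA2A and TRA2B rose in all 4 populations. Their arsenite levels in S181E and Y396E lay below those of WT by less than the fold threshold.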

How the results depend on the processing

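Of 50 called results of single members, each under 33 alternatives, 1639 of 1650 values kept direction and call, 11 lost the call and 0 changed direction. Of the 11, 7 were lost with the exon length correction, 3 without 1 library and 1 with library totals only, all given above. Leaving out each of the 24 libraries made up 24 of the 33 alternatives. Many of those libraries belonged to groups outside the comparison, where a fit can hardly change the call. The number of kept values therefore says little about how firm a result is. With library totals only the number of called members was 8 in S181E and 8 in Y396E against WT in control (3 each in the main analysis). It was 9 for arsenite in RQ cells (10), 7 for the S181E response (4) and 6 for the Y396E response (5). This scaling moved the median of all genes from -0.01 to 0.15 in WT arsenite and from 0.02 to 0.18 in S181E control. Without a fold threshold the counts were 10 for arsenite in WT cells, and against WT in control 1 for RQ, 8 for S181E and 8 for Y396E. Against WT in arsenite they were 2 for S181E and 5 for Y396E, and for the responses 7 in S181E and 6 in Y396E. With a fold change above 1.5 they were 6 for arsenite in WT cells, 5 in RQ cells, 4 in S181E cells and 5 in Y396E cells. For each mutant comparison and each response the count was then 0. The shares of all genes called under these alternatives are not given here, so these counts are no result about the members. With each library left out, the count ranged from 0 to 1 for Y396E against WT in arsenite, 3 to 4 for S181E and for Y396E against WT in control, 3 to 5 for the S181E response and 4 to 6 for the Y396E response, and equalled the main count elsewhere. Fits with a replicate block gave 9, 10, 8 and 8 called members for the arsenite changes (WT, RQ, S181E, Y396E) and changed the count in 0 of the 13 comparisons. With at least 1514 counts per member and library, counting noise was small, and 3 libraries per group limit the precision.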
